A study of Mus musculus with 12 samples.

Results

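The genes described here are the 200 most counted protein-coding genes whose name is Zfp followed by a number, out of 368 such rows in a table of 55471 mouse genes. They were selected on the sum of their counts over all 12 libraries, so their total abundance is a condition of membership and not a result. The sum runs over both stages, so a gene scarce at one stage had to be abundant at the other to be included. Just inside the limit stood Zfp704 with 822 counts and Zfp952 with 806, and just outside it Zfp472 with 792 and Zfp982 with 777. Of the 168 rows beyond the limit, 6 had no count in any library.

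The libraries came from C57Bl mice with tdTomato-marked germ cells, sorted by flow cytometry. No source used here gives the promoter behind the marker, the age of the mice or how many went into a library. Leptotene and zygotene spermatocytes (LZ) spent 6 days in culture. They received no treatment or octyl-L2HG at 0.3 mM, an ester that carries L-2-hydroxyglutarate into cells. Pachytene and diplotene spermatocytes (PD) spent 48 hours there. They received no treatment or oxamate at 24 mM, which inhibits lactate dehydrogenase and, per the series text, lowers their 2-hydroxyglutarate to what LZ cells have. A group is 3 libraries, which that text calls independent experiments; they are named A, B and C after the code that columns share. The p-values measure the spread between these libraries.

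Zfp is a naming convention of mouse genes for proteins with zinc fingers, small zinc-binding folds that mostly read DNA and in some proteins bind RNA or other proteins. The largest subfamily carries a KRAB box, which recruits the corepressor Trim28 and, through it, the histone methyltransferase Setdb1 and HP1 proteins, and many of its members silence transposable elements or protect imprinted genes. In the testis, transcription of many genes changes as spermatocytes pass from zygotene into pachytene, while the X chromosome is silenced in pachytene. Of the members, 86 encode a recognisable KRAB box and 113 do not, and Zfp469 has no coding sequence in the annotation used.

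Total counts were 10532504 to 21275486 per library. The members held 1.05% ± 0.0365 of them in untreated LZ libraries (SD, n = 3), 1.09% ± 0.0131 with octyl-L2HG, 0.983% ± 0.0287 in untreated PD libraries and 1.01% ± 0.0377 with oxamate. A share of 1.05% in untreated LZ library A had a 95% Wilson interval of 1.05% to 1.06%, which covers counting error only. The stage labels were checked on marker lists. The 8 leptotene and zygotene markers together took 0.241% to 0.339% of the counts in untreated LZ libraries and 0.0245% to 0.0349% in untreated PD libraries, and 7 of the 8 were lower in PD, Spo11 being higher. The 8 pachytene and diplotene markers took 0.0840% to 0.133% and 1.28% to 1.30%, and all 8 were higher in PD.

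Levels of different genes were compared per length, as normalized counts per kilobase of exon. The members' median was 52.6 in untreated LZ, 56.1 with octyl-L2HG, 59.4 in untreated PD and 61.1 with oxamate, and their range in untreated LZ ran from 0.154 to 1019. The highest level in LZ was that of Zfp207, a kinetochore and spindle assembly protein also called BuGZ, at 1019 ± 128 per kilobase (SD, n = 3), followed by Zfp541 at 646 ± 58.1, Zfp217 at 508 ± 77.9, Zfp654 at 504 ± 126 and Zfp318 at 473 ± 46.3. The last 3 lay within their spread of each other. In untreated PD cells Zfp541, a testis protein required for completion of meiotic prophase, stood first at 2117 ± 201 per kilobase, followed by Zfp654 at 1925 ± 228, Zfp956 at 1813 ± 51.6, Zfp574 at 1766 ± 31.6 and Zfp39 at 1700 ± 97.1. Neighbours in that order did not differ beyond their spread. Zfp956 and Zfp39 were named after their values were seen.

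**Figure D1:**
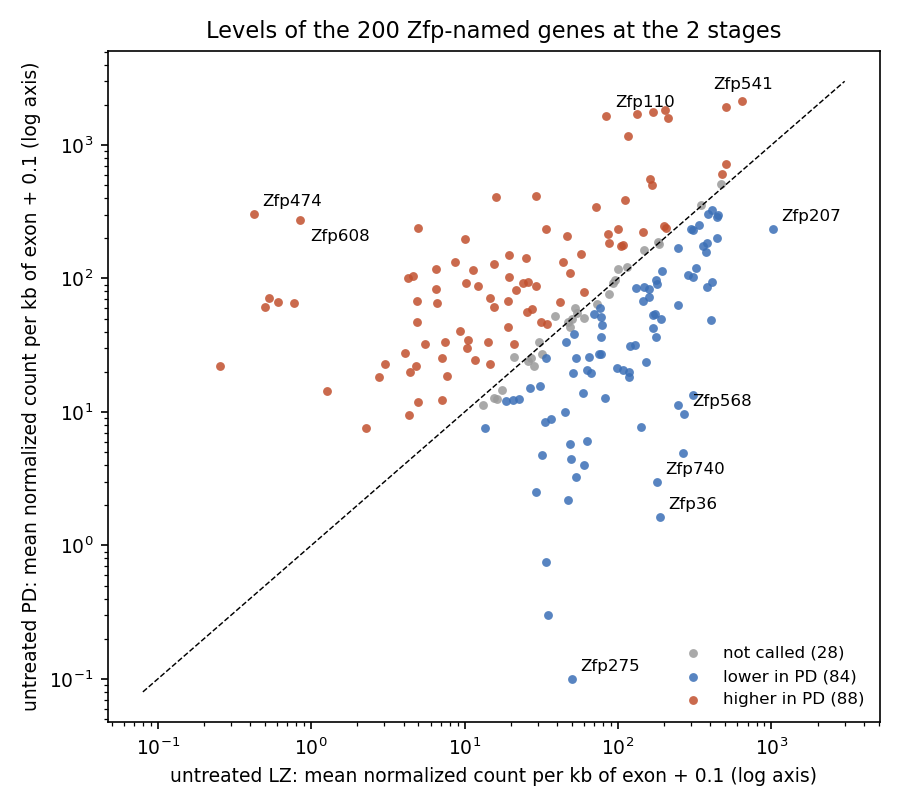
Mean normalized count per kilobase of exon plus 0.1 in untreated LZ (horizontal, log axis) and untreated PD libraries (vertical, log axis), 1 point per member, coloured by the stage call, with the line of equal level dashed. The 88 members higher in PD lie above the line, reaching from Zfp474 and Zfp608 at the left to Zfp541 at the top, and the 84 lower members lie below it, with Zfp275 at the bottom.

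The first comparison asks how the genes differ between the stages. Between untreated PD and untreated LZ libraries, 88 of the 200 members were higher in PD, 84 were lower and 28 did not pass the test (limma, Benjamini-Hochberg adjusted p under 0.05 over all genes tested). The members thus divided almost evenly in the main scaling. Among all 16881 genes tested, 50.8% were called higher and 38.9% lower, against 44.0% and 42.0% of the members. The higher members had a median log2 fold change of 2.17, with 45 of them past 4-fold and 14 past 16-fold. The lower members had a median of -1.58, with 33 and 12 past those limits. The members' median was 0.00 and their 10th and 90th percentiles were -2.70 and 3.39, beside a median of 0.49 over all genes tested. Groups did not overlap for 84.5% of the members and for 89.9% of all genes tested.

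The split depended on the scaling of the libraries. When libraries were scaled by total count alone, the median over all genes tested moved by -0.56 on the log2 scale, and 74 members were called higher and 106 lower, with a median of -0.47. Relative to the median over all genes, the members' median was -0.48 in the main scaling and -0.40 with total counts. Stage also goes with time in culture, 6 days against 48 hours, and the 2 cannot be told apart. In bulk samples, fewer cells of a type and less RNA per cell cannot be told apart either.

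Markers of other testis cells moved with stage as well. The 8 round spermatid markers took 0.000791% to 0.00180% of the counts in untreated LZ, where Acrv1 was at 0, and 0.107% to 0.126% in untreated PD, and all 8 were higher in PD. Sertoli cell markers took 0.0336% to 0.0375% in LZ and 0.000301% to 0.000395% in PD, where Gata4, Rhox5 and Wt1 were at 0. Of those 8 genes 3 were tested, 2 being lower in PD and 1 higher, and nearly all of the LZ sum came from Ctsl. Peritubular markers took 0.0212% to 0.02505% in LZ and 0.000543% to 0.000671% in PD, with 4 of 7 tested and all 4 lower. Nearly all of that LZ sum came from Fn1, at 2807 ± 159 in LZ and 72.8 ± 9.65 in PD (SD, n = 3). The untested Acta2 and Dcn, at few counts, had higher means in PD, and the untested Pdgfrb a lower one. Spermatogonial markers took 0.00577% to 0.00680% and 0.000991% to 0.00117%, with 4 lower and 1 higher of 5 tested. Leydig cell markers (1 tested and lower of 6, Insl3 at 0 at both stages) and macrophage markers (1 higher and 1 lower of 7, Adgre1 at 0 in LZ and C1qa in PD) stayed under 0.00196% in every untreated library. Endothelial markers took 0.000826% to 0.00106% in LZ, where Cdh5 was at 0, and 0.00241% to 0.00246% in PD, with 4 of 5 higher. The part of these cells in the stage results below was not tested.

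The most counted members give the scale of the stage differences. Zfp646, with 27 fingers and the largest sum of counts, had normalized counts of 2485, 1809 and 1858 in the untreated LZ libraries and of 14690, 16480 and 15530 in the untreated PD libraries. It was 7.59-fold higher in PD (log2 fold change 2.94 ± 0.11 SE, limma adjusted p = 3.64e-12), and no PD library came near the LZ range. Zfp574 rose 10.4-fold, from 755 to 874 in LZ to 8429 to 8730 in PD (adjusted p = 1.03e-13). Zfp110, a KRAB protein known as an interactor of the p75 neurotrophin receptor, rose 19.8-fold, from 316 to 382 in LZ to 6635 to 6942 in PD (log2 fold change 4.30 ± 0.09 SE, limma adjusted p = 1.66e-14). Zfp654 rose 3.82-fold and Zfp451, a ligase that extends SUMO chains, 3.46-fold.

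Zfp207 was the only fall among the 10 most counted members. Its normalized counts were 7542, 5867 and 6944 in LZ and 1327, 1669 and 1653 in PD, so that PD held 0.228 of the LZ level (log2 fold change -2.13 ± 0.12 SE, limma adjusted p = 3.57e-10). Zfp91, a ubiquitin ligase, ranged from 3775 to 5440 in LZ and from 4918 to 5379 in PD, and these ranges overlapped (adjusted p = 0.308). With total-count scaling the log2 fold change of Zfp91 turned from 0.13 to -0.35.

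The 10 largest rises were of Zfp474, Zfp608, Zfp423, Zfp93, Zfp759, Zfp286, Zfp526, Zfp992, Zfp661 and Zfp991, of which Zfp93, Zfp759, Zfp286, Zfp992, Zfp661 and Zfp991 carry a KRAB box. Zfp474 had normalized counts of 0, 1.17 and 1.15 in LZ and of 813, 639 and 710 in PD. Its ratio of 932 rests on 2 counts in LZ and had a 95% exact Poisson interval of 258 to 7697 for those counts. Zfp608, a relative of the cohesin-loader partner Zfp609, had 5.22, 7.04 and 6.88 in LZ and 2163, 2271 and 2509 in PD, a 363-fold rise (log2 fold change 8.30 ± 0.22 SE, limma adjusted p = 1.63e-13). Both were close to absent in LZ and moderately abundant in every PD library.

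Zfp423, a transcription factor with 27 fingers that partners Ebf proteins, went from 2.61, 1.17 and 3.44 in LZ to 391, 418 and 382 in PD. Zfp93, on chromosome 7, went from 0.869, 2.35 and 1.15 to 246, 206 and 214. Zfp759 went from 3.48, 1.17 and 1.15 to 231, 241 and 281. For these 3 genes the lowest PD library was above the highest LZ library by a wide margin, and their ratios of means were 165, 153 and 130. Those ratios rest on very few counts in LZ, so they are imprecise, and no interval was computed for them. Zfp286, Zfp526 and Zfp661 rose 97.5-fold, 48.5-fold and 24.1-fold. Zfp992 rose 25.6-fold and Zfp991 22.9-fold, both on chromosome 4, but 43.0% and 82.2% of their exon sequence is shared with other genes in windows of 50 bases, so how reads were divided between copies is uncertain; Zfp93 shares 20.8%.

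The 10 largest falls were of Zfp275, Zfp266, Zfp36, Zfp740, Zfp469, Zfp532, Zfp568, Zfp68, Zfp655 and Zfp777, of which Zfp266, Zfp568, Zfp68 and Zfp777 carry a KRAB box. Zfp275, on the X chromosome, had 395, 283 and 334 normalized counts in LZ and none in any PD library. With 3 counts over the group as a floor, it was at least 327-fold lower in PD. Zfp266, on chromosome 9, had 236, 224 and 272 in LZ and 0, 3.43 and 0.848 in PD, 0.00584 of the LZ level (limma adjusted p = 4.50e-10). Both were near the detection limit in PD.

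Zfp36, also called tristetraprolin, binds AU-rich elements and speeds mRNA decay through CCCH rather than C2H2 fingers. It had 808, 568 and 568 in LZ and 3.49, 5.72 and 6.78 in PD, 0.00823 of the LZ level (log2 fold change -6.70 ± 0.35 SE, limma adjusted p = 1.29e-10). Somatic cells express Zfp36 too, and the Sertoli and peritubular marker sums given above, mostly Ctsl and Fn1, fell with it. That part was not tested. Zfp740 went from 1088, 844 and 813 to 19.8, 14.9 and 9.32, and Zfp469, whose human counterpart is mutated in a corneal disorder, from 893, 723 and 845 to 17.5, 12.6 and 14.4. Zfp568 went from 2273, 1799 and 1883 to 94.3, 57.2 and 57.7. In each of these genes every PD library was far under every LZ library. Zfp532, Zfp68, Zfp655 and Zfp777 in PD stood at 0.0192, 0.0439, 0.0436 and 0.0458 of their LZ level.

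**Figure D2:**
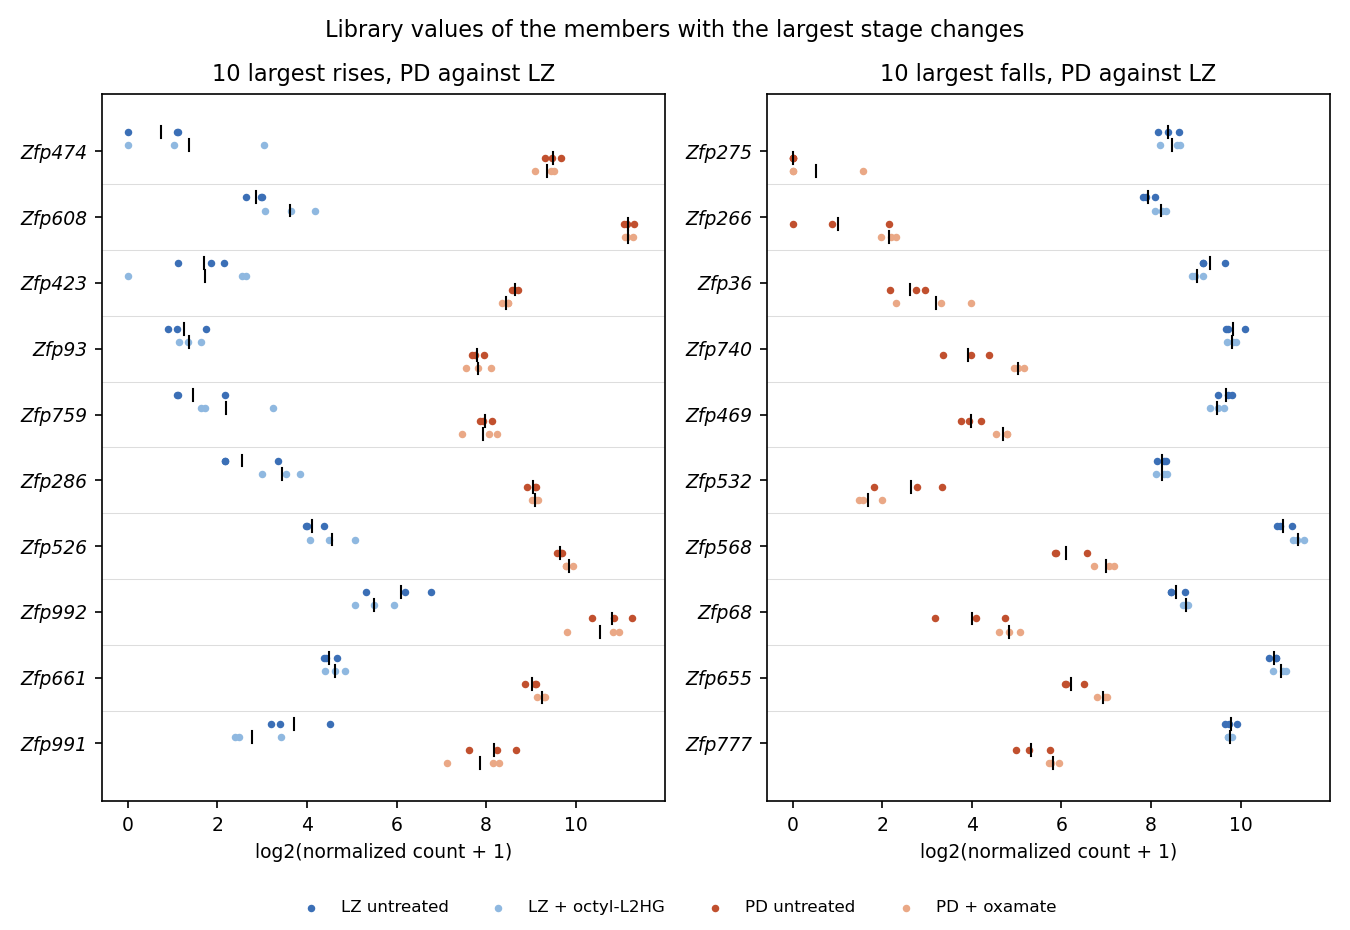
log2(normalized count + 1) of the 10 members with the largest rises (left) and the 10 with the largest falls (right) in the 12 libraries, 1 point per library, coloured by group, with a tick at each group's mean. For every gene shown the 3 untreated PD libraries and the 3 untreated LZ libraries lie apart, and each treated group lies near the untreated group of its own stage.

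Promoters of members that moved in opposite directions are shown because they differ in CG dinucleotides, the sites that DNA methylation uses. They are examples chosen for that difference and do not stand for all members of a direction. Zfp318, with 49 CG, was higher in PD. The sequences are RefSeq promoters of 300 bases, from 250 before to 50 after the annotated start, on build GRCm38.p6, with each CG in capitals. Zfp326, which joins RNA polymerase and the splicing machinery (chr5:105876318-105876617, + strand, 34 CG), and Zfp148 (chr16:33380525-33380824, + strand, 32 CG) were lower in PD. Zfp93 (chr7:24270168-24270467, + strand, 10 CG) and Zfp42 (chr8:43306960-43307259, - strand, 11 CG) were higher.
Zfp326: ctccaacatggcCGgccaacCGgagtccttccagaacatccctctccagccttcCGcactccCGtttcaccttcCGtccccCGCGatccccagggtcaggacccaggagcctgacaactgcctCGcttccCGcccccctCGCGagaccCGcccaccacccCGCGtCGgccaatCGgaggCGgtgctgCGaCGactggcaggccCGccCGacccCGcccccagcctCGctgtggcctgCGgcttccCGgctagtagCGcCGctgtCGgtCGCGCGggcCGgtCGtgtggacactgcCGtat
Zfp148: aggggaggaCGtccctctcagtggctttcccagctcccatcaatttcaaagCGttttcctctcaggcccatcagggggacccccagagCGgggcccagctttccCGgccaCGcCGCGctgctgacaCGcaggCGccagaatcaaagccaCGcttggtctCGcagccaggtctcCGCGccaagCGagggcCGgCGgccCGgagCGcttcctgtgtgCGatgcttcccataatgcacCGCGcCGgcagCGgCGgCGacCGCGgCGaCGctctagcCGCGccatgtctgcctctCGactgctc
Zfp93: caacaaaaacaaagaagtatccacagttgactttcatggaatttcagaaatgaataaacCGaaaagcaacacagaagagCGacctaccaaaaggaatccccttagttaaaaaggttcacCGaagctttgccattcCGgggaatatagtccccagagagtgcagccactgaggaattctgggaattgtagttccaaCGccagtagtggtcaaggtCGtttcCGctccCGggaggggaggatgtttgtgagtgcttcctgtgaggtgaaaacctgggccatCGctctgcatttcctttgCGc
Zfp42: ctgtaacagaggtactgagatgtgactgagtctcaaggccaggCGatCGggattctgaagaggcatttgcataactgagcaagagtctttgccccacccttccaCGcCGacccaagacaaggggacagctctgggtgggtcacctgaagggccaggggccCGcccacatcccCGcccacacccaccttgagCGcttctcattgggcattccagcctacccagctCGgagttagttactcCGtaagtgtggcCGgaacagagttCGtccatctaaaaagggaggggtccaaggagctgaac

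Over the 143 members with such a promoter, 126 of which start within 500 bases of the gene's start in the table, the stage calls were as follows by CG count. Of 24 members with 0 to 9 CG, 16 were higher in PD and 6 lower. With 10 to 19 CG the counts were 24 and 26 of 59, with 20 to 29 CG 16 and 16 of 39, and with 30 or more CG 4 and 14 of 21. The medians of the log2 fold change were 1.16, -0.03, 0.03 and -1.05 in that order, and with total-count scaling 0.68, -0.50, -0.45 and -1.53. The first and last of these classes lay on opposite sides and those between were close to even. Among all tested protein-coding genes with a promoter, 65.9% were higher and 25.7% lower of 2076 with 0 to 9 CG, 48.4% and 42.1% of 2583 with 10 to 19, 39.4% and 50.4% of 2985 with 20 to 29, and 38.2% and 53.2% of 2143 with 30 or more. The members were not compared with those genes by a test. The members' promoters were richer in CG than the 27025 promoters of the table, with a median of 18 against 7. Of the members' promoters 16.8% had 0 to 9 CG, against 56.1% of all. Those 27025 include genes that were not tested, while the members were selected on their counts. Of the 9787 tested protein-coding genes with a promoter, 2076 had 0 to 9 CG and 2143 had 30 or more. The members had 24 and 21 of 143, a smaller share than the tested genes in both classes.

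**Figure D3:**
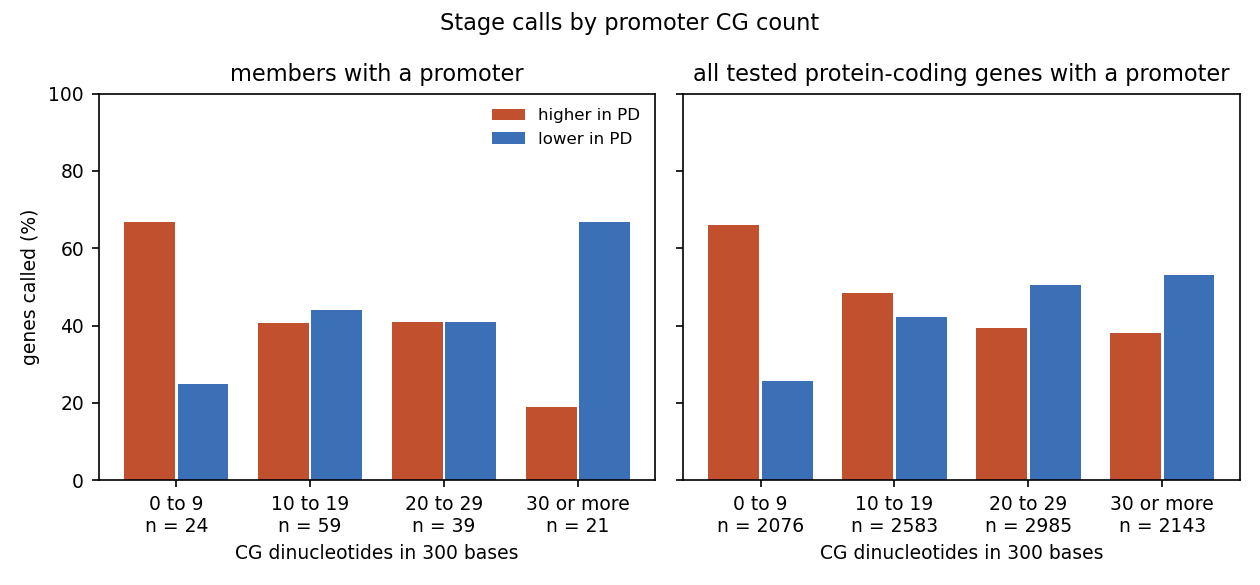
Percent of genes called higher (red bars) or lower (blue bars) in untreated PD against untreated LZ, by the number of CG dinucleotides in the 300-base promoter, for the members (left) and for all tested protein-coding genes with a promoter (right). The share higher in PD is smaller and the share lower is larger in the last bin than in the first in both panels, with 16 of 24 against 4 of 21 members higher, and 65.9% against 38.2% of all genes, while the 2 middle bins of the members are near even.

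A pair of promoters is shown for letters that meiotic transcription factors read. The search used AACNGTC, a form of the motif of MYB proteins, of which Mybl1 is the pachytene factor, and TGACGTCA and its shorter form TGACG, motifs of CREB and CREM proteins, all on both strands; each TGACGTCA also holds TGACG. Capitals mark these letters in Zfp266 (chr9:20521370-20521669, - strand) and Zfp335 (chr2:164911701-164912000, - strand), both lower in PD. Both promoters hold AACNGTC and TGACGTCA, and they do not stand for all members of that direction.
Zfp266: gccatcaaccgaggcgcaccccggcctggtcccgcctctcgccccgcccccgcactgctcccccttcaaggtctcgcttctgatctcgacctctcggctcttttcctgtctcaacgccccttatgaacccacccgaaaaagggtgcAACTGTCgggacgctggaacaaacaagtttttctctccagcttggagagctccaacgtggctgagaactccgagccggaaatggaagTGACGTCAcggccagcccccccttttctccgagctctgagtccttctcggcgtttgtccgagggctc
Zfp335: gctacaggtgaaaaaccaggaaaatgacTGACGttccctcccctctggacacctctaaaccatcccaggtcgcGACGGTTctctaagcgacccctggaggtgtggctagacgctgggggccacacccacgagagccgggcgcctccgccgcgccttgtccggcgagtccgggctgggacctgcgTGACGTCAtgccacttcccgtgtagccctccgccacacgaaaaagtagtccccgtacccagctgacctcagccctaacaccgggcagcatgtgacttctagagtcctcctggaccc

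AACNGTC stood in 13 of the 143 member promoters, 9.09%, and in 8.09% of all 27025 promoters. Of those 13 members 11 were lower in PD and 1 was higher. Of the 130 members without the letters 39.2% were lower and 45.4% higher. Among tested protein-coding genes, 39.8% of the 738 with the letters were lower and 51.1% higher, and 43.9% and 46.8% of those without them. These shares were not compared by a test, and 13 members are few. TGACG stood in 31.5% of the member promoters and in 5681 of all 27025, and TGACGTCA in 5 members, 3.50%, and in 1.88% of all. None of the 5 was called higher in PD and 3 were called lower. Stage calls of all tested genes with TGACGTCA or TGACG were not counted, so these 5 members cannot be set against a background. A match is only a match of letters.

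The members were also read by KRAB box and by finger number, as counts with no test between the classes. Of the 86 with the box 45 were higher in PD and 26 lower, with a median log2 fold change of 0.65, so that their 52.3% higher was near the 50.8% of all genes tested, with 30.2% lower against 38.9%. Of the 113 without it 43 were higher and 57 lower, 38.1% and 50.4%, with a median of -0.32. With total-count scaling the counts were 39 and 36 with a median of 0.17 for the former, and 35 and 69 with a median of -0.80 for the latter, so the order of the medians stayed while the majority among KRAB members narrowed. Among the 17 KRAB members that share over 5% of their sequence with other genes 11 were higher and 3 lower, and among the other 69 the counts were 34 and 23, with a median of 0.30.

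By finger number the 3 lower classes were much alike, with 39.0%, 40.0% and 42.6% of their members higher, against 59.5% in the class of 15 or more fingers and 50.8% of all genes tested. Members with 15 or more fingers were higher in 22 cases and lower in 12 of 37, with a median log2 fold change of 1.11. Those with 0 to 4 fingers were higher in 16 and lower in 21 of 41 (median -0.32), those with 5 to 9 in 24 and 26 of 60 (median -0.11) and those with 10 to 14 in 26 and 24 of 61 (median -0.04). Among the members with 15 or more fingers, 12 were higher and 6 lower of 20 with a KRAB box, and 10 and 6 of 17 without one. Among those with 10 to 14 fingers the counts were 19 and 10 of 39 with the box, and 7 and 14 of 22 without it. With total-count scaling the group with 15 or more fingers kept a median of 0.64, and 19 were higher and 13 lower. Members of one cluster share ancestry and sequence, so they are not independent of each other.

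**Figure D4:**
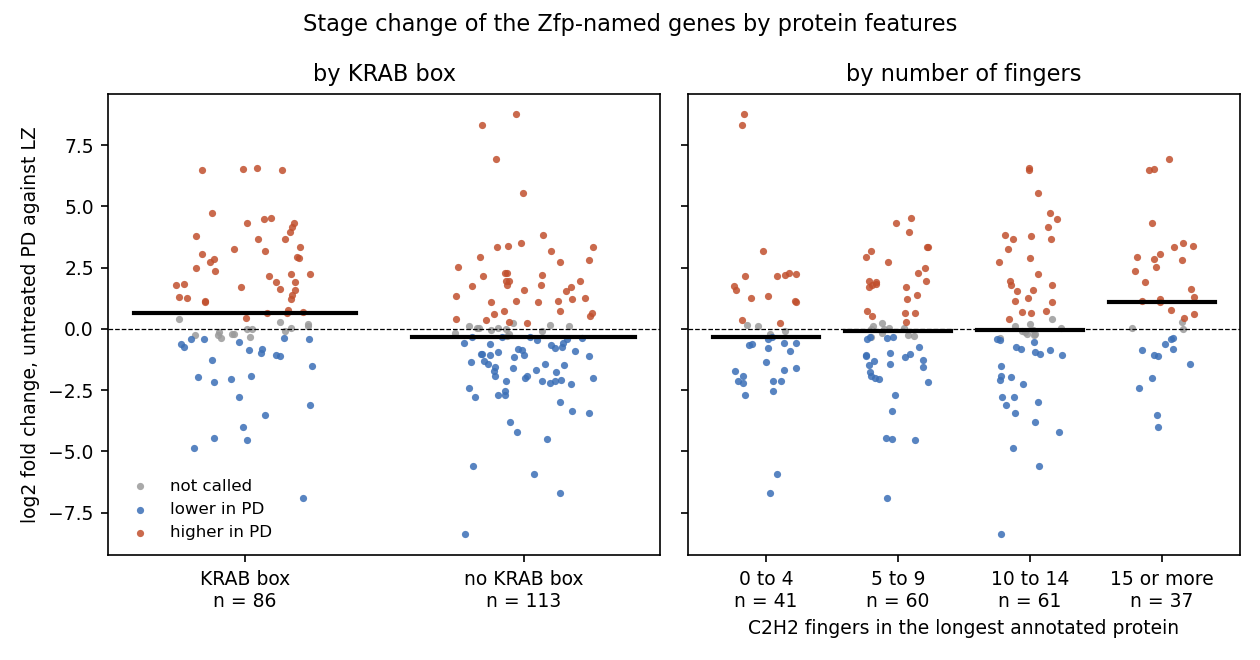
log2 fold change of each member, untreated PD against untreated LZ, by KRAB box (left) and by number of C2H2 fingers (right), 1 point per member coloured by its call, with a black bar at the median. Medians are 0.65 with and -0.32 without a KRAB box, and 1.11 for 15 or more fingers against -0.32, -0.11 and -0.04 for fewer, and all classes hold members that rose and members that fell.

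Members lay on all chromosomes but the Y and chromosome 10. Chromosome 7 held 51 of them, 22 with a KRAB box, of which 28 were higher and 18 lower in PD; these 54.9% and 35.3% were near the 50.8% and 38.9% of all genes tested. The counts on other chromosomes are small and were not tested against that background. On chromosome 4 the counts were 9 and 4 of 13, with a median log2 fold change of 2.27, and on chromosome 13 they were 7 and 3 of 10, with a median of 1.61. The reverse held on chromosome 5 with 2 and 8 of 12, chromosome 6 with 2 and 7 of 10 and chromosome 8 with 3 and 9 of 15. On chromosome 9, where 12 of 16 members carry a KRAB box, 6 were higher and 2 lower, but 4 were higher and 9 lower with total-count scaling. Both X-linked members fell. Zfp711, a chromatin-bound partner of the histone demethylase Phf8, went from 2421, 1671 and 2572 in LZ to 262, 286 and 269 in PD (limma adjusted p = 3.16e-08), beside Zfp275 with no count in PD. Of all 601 X-linked genes tested, 454 were lower and 123 higher.

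The list chosen for germ cell roles had 8 members, and all 8 were higher in PD, with a median log2 fold change of 1.86; with total-count scaling 7 were called higher and Zfp318 was not. The members were listed with earlier results known, and 50.8% of all genes tested were higher. Zfp541, which acts with Kctd19 in a histone deacetylase complex, had 3475, 3019 and 2956 in LZ and 10890, 10890 and 9198 in PD, 3.28-fold higher (log2 fold change 1.71 ± 0.09 SE, limma adjusted p = 1.43e-10). Zfp37, first known as a testis transcript, had 128, 108 and 122 against 1731, 1603 and 1768, 14.3-fold higher. Zfp35, known to be transcribed in pachytene, had 390, 323 and 350 against 3508, 3585 and 3634, 10.1-fold higher. In all of these the stages were fully apart. The round spermatid marker sums given above rose beside them, and their part was not tested.

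Zfp42, known as Rex1 and as a marker of pluripotent cells, rose 2.52-fold, from 143, 154 and 189 to 389, 428 and 405; its promoter is the one shown above with 11 CG. Zfp105 rose 3.43-fold, Zfp296 3.96-fold and Zfp59 8.29-fold, the last with 52.4% of its sequence shared. Zfp318, a testis zinc finger protein that is also required for IgD expression in B cells, had 7207, 5938 and 6452 against 7617, 8861 and 8721. The difference was small at 1.29-fold (limma adjusted p = 0.00230), and with total-count scaling its log2 fold change turned from 0.36 to -0.12. Zfp541's partners did not move as a group: Kctd19 rose from 3227 ± 182 to 15330 ± 536 (SD, n = 3), while Hdac2 fell from 2476 ± 224 to 402 ± 11.0 and Dnttip1 from 1161 ± 181 to 566 ± 38.8, and Hdac1 and Elmsan1 did not pass the test.

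Of 5 members listed for imprint protection and retroelement silencing, 1 was higher in PD and 3 were lower, too few to set against the shares over all genes. Zfp57, which keeps imprinted DNA methylated, had 40.9, 43.4 and 29.8 in LZ and 349, 321 and 370 in PD, 9.12-fold higher (log2 fold change 3.17 ± 0.17 SE, limma adjusted p = 2.20e-10). Zfp445, which shares that task, had 1787, 1651 and 2017 against 1015, 1281 and 1476, 0.691 of the LZ level (limma adjusted p = 0.0187). Thus the 2 imprint factors moved in opposite directions without overlap of the stages. Zfp568, a repressor of a placental Igf2 transcript, fell to 0.0351 of its LZ level, and Zfp961 to 0.595. Zfp809, which silences murine leukaemia virus-type elements, had 156, 106 and 158 in LZ and 102, 142 and 170 in PD, with overlapping ranges (adjusted p = 0.905).

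Of 9 members listed as acting on RNA or ribosomes 8 were lower in PD and 1 was higher, where 38.9% of all genes tested were lower and 50.8% higher; their median log2 fold change was -0.64, and the list was not tested against other genes. Zfp622, a factor of ribosomal subunit maturation, had 1088, 1217 and 943 in LZ and 185, 144 and 175 in PD, 0.155 of the LZ level (limma adjusted p = 3.63e-11). Zfp326 had 1264, 1168 and 1231 against 349, 383 and 416, 0.314 of the LZ level. Zfp598, a ubiquitin ligase that senses collided ribosomes, had 2093, 1555 and 1606 against 1168, 1270 and 1057, 0.665 of it. In these 3 genes no PD library reached the LZ range. Zfp346, Zfp106, Zfp638 and Zfp593 fell to between 0.556 and 0.670 of the LZ level, Zfp36 fell as given above, and 77.9% of Zfp593 lies opposite a gene on the other strand, whose reads cannot be told apart here. Zfp830, a splicing factor, rose 3.04-fold, from 302, 242 and 248 to 699, 869 and 842.

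Of 16 members listed as chromatin proteins or general transcription factors, 5 were higher in PD and 10 lower, beside 50.8% and 38.9% of all genes tested. Their median log2 fold change was -0.68. With total-count scaling 2 were higher and 13 lower, with a median of -1.16. Zfp410, an activator of the chromatin remodeller gene Chd4, had 1290, 1432 and 1215 in LZ and 203, 197 and 208 in PD, 0.154 of the LZ level (log2 fold change -2.69 ± 0.09 SE, limma adjusted p = 1.54e-12). Chd4 itself was higher in PD, at 8059 ± 437 against 5277 ± 1554 (SD, n = 3). Its log2 fold change was 0.65, where total-count scaling moved the median over all genes tested by -0.56. Zfp148 went from 1248, 1130 and 1271 to 185, 218 and 219, and Zfp143, an activator that binds at promoters, from 593, 560 and 520 to 256, 250 and 258. All 3 fell well outside their replicate spread.

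Zfp281, Zfp335, Zfp644 and Zfp711 fell to between 0.122 and 0.526 of their LZ level, and the related Zfp592 and Zfp687 to 0.742 and 0.793. Zfp462 rose 12.1-fold from a low level, 11.7 to 15.6 in LZ and 136 to 177 in PD. Zfp217 rose 1.41-fold, Zfp384 1.22-fold and Zfp609 1.16-fold, the last with overlapping ranges (limma adjusted p = 0.0426), and with total-count scaling the log2 fold changes of Zfp384 and Zfp609 turned from 0.29 to -0.19 and from 0.22 to -0.26. Zfp516 did not pass the test (adjusted p = 0.821).

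The proteins through which KRAB members repress were read beside them. Of 19 listed corepressor genes 13 were lower in PD and 5 higher, beside 38.9% and 50.8% of all genes tested. With total-count scaling 14 were lower and 3 higher, beside 46.1% and 44.2% of all genes tested. Trim28, the direct partner of the KRAB box, had 20120 ± 2533 in LZ and 11410 ± 474 in PD (SD, n = 3), a log2 fold change of -0.81 ± 0.10 (SE, limma adjusted p = 2.25e-06), and Setdb1 fell from 2961 ± 427 to 2078 ± 83.0. The HP1 genes Cbx1, Cbx3 and Cbx5 fell as well, Cbx1 to 552 ± 30.2 from 3020 ± 186. Smarcad1, a remodeller, fell from 1260 ± 200 to 57.5 ± 17.7. The genes for DNA methylation Dnmt1 and Uhrf1 rose, as did Chd4, Trim24 and Trim33, and Hdac1 did not pass the test.

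Octyl-L2HG was compared with untreated LZ cells, a comparison that shares the untreated LZ libraries with the stage comparison. Of the 192 members tested, 0 were called higher and 0 lower by limma, where 0.276% of all 13039 genes tested were called higher and 0.0307% lower. Before adjustment, 20 members were higher and 4 lower at p under 0.05, against 1322 and 372 of all genes. That lean turned with the scaling: with total counts 12 members were higher and 17 lower, against 664 and 932 of all genes, and with median-of-ratios size factors 13 were higher and 10 lower. The authors' deposited table had 3 members higher and 1 lower at an adjusted p under 0.05. The members' median log2 fold change was 0.08, beside 0.06 over all genes, and groups did not overlap for 16.7% of members and 19.1% of all genes.

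The members with the smallest p on either side show the size of the differences. Zfp398 had 1447, 1544 and 1584 in untreated LZ and 2164, 1897 and 1948 with octyl-L2HG, a ratio of 1.31 (limma adjusted p = 0.137). Zfp652 had 2868, 2382 and 2551 against 3551, 3051 and 3353, a ratio of 1.28, and Zfp61 42.6, 42.2 and 28.7 against 61.6, 74.0 and 48.6, a ratio of 1.62. The groups lay apart in all 3 genes, yet none passed the adjusted threshold here. Zfp652 was among the members that the authors' deposited table called higher. Of its sequence 11.95% is shared with other genes, mostly with Phospho1, which overlaps it.

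On the lower side, Zfp42 had 143, 154 and 189 in untreated LZ and 112, 122 and 120 with octyl-L2HG, a ratio of 0.730 (limma adjusted p = 0.161). Zfp865 had 363, 284 and 273 against 251, 198.7 and 224, a ratio of 0.732, and Zfp57 40.9, 43.4 and 29.8 against 23.9, 25.4 and 31.6, a ratio of 0.708. The groups lay apart for Zfp42 and Zfp865 and overlapped for Zfp57. Zfp207, the most abundant member in LZ, had a log2 fold change of 0.05 ± 0.12 (SE).

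Oxamate was compared with untreated PD cells, a comparison that shares the untreated PD libraries with the stage comparison. Of the 196 members tested 19 were higher with oxamate and 1, Zfp408, was lower, that is 9.69% and 0.510%. Among all 15233 genes tested 6.13% were called higher and 1.65% lower. Among protein-coding genes the shares were 7.60% and 1.70%, so the members' share of higher calls was not far from the background. The rises were modest, with ratios of means from 1.29 to 2.18, and in all 19 genes the 3 oxamate libraries lay above the 3 untreated PD libraries. Non-overlapping groups were seen for 33.7% of members and 34.4% of all genes. The members' median log2 fold change was 0.08, beside 0.03 over all genes, and fell to 0.01 with total-count scaling.

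Libraries with the same code deviated together in this pair of groups. With the code as a replicate block, 29 members were higher and 2, Zfp408 and Zfp618, lower, and all 19 of the members above were among the 29. The authors' deposited table had 23 members higher and 3 lower, of which 17 and 1 were also called here. Marker sums of other cells moved too. Round spermatid markers took 0.107% to 0.126% of the counts in untreated PD and 0.0864% to 0.106% with oxamate. Of these 8 genes limma called 0, and 0 passed an unadjusted p of 0.05. Yet Prm1 went from 1143 ± 110 to 678 ± 30.4 normalized counts and Prm2 from 1618 ± 168 to 990 ± 53.0 (SD, n = 3), while 3 of the 8 had a positive log2 fold change. The spread used by the test also came from LZ libraries, where Prm1 had 12.3 ± 11.0 untreated. The test could therefore miss such differences. Endothelial markers took 0.00241% to 0.00246% against 0.00149% to 0.00163%, with 0 of 5 called by limma, 1 lower at an unadjusted p under 0.05 and none at 0. Their part in these calls was not tested.

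Zfp740, with 2 fingers, had 19.8, 14.9 and 9.32 in untreated PD and 34.99, 31.6 and 29.5 with oxamate, a ratio of 2.18 (log2 fold change 1.13 ± 0.22 SE, limma adjusted p = 0.00651). Zfp12 had 149, 157 and 136 against 274.5, 274.2 and 274.5, a ratio of 1.87 (log2 fold change 0.90 ± 0.12 SE, limma adjusted p = 0.00104). Zfp568 had 94.3, 57.2 and 57.7 against 132, 104 and 145, a ratio of 1.82 (limma adjusted p = 0.00992). All oxamate libraries were above all untreated PD libraries, but Zfp740 and Zfp568 stayed far under their LZ levels of 813 to 1088 and of 1799 to 2273.

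Zfp609, which works with the cohesin loader Nipbl and the Integrator complex, had 1866, 2115 and 1974 in untreated PD and 3310, 3430 and 3289 with oxamate, a ratio of 1.68 (log2 fold change 0.75 ± 0.10 SE, limma adjusted p = 0.000910). Zfp628, a factor needed for spermatid development, had 197, 221 and 153 against 336, 324 and 291, a ratio of 1.67 (limma adjusted p = 0.0150). Zfp469 had 17.5, 12.6 and 14.4 against 22.4, 26.6 and 26.6, a ratio of 1.70 (limma adjusted p = 0.0150). With oxamate Zfp609 and Zfp628 stood above every untreated LZ library too. The calls of Zfp740 and Zfp469 were lost with voom weights, at adjusted p = 0.0584 and 0.180, and that of Zfp469 also in a fit of these groups alone, at adjusted p = 0.0884.

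The other 13 rises were of Zfp655, Zfp629, Zfp667, Zfp251, Zfp688, Zfp217, Zfp282, Zfp639, Zfp148, Zfp143, Zfp598, Zfp236 and Zfp687. They ranged from a ratio of 1.29 for Zfp687 to 1.63 for Zfp655. Zfp217 had 4749, 4339 and 4124 in untreated PD and 6446, 5991 and 6280 with oxamate, and Zfp148 had 185, 218 and 219 against 253, 299 and 296. In both the groups were apart. By role, 5 of 15 tested members of the chromatin and transcription list were higher (Zfp217, Zfp609, Zfp148, Zfp143 and Zfp687). It was 1 of 5 on the imprint and retroelement list (Zfp568), 1 of 8 on the RNA list (Zfp598) and 0 of 8 on the germ cell list. On the germ cell list Zfp318 alone had an unadjusted p under 0.05 (limma). Over all genes tested 6.13% were higher, and over protein-coding genes 7.60%. The lists were chosen with earlier results known and were not tested against those shares. Zfp541 had 10890, 10890 and 9198 against 10150, 9847 and 9165 (adjusted p = 0.697), while its partner Kctd19 fell from 15330 ± 536 to 12680 ± 470 (SD, n = 3, limma adjusted p = 0.0361) and Hdac2 rose from 402 ± 11.0 to 571 ± 59.5 (limma adjusted p = 0.0111).

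Zfp408, known in humans for mutations in a retinal vascular disorder, had 136, 140 and 159 in untreated PD and 108, 102 and 104 with oxamate, a ratio of 0.720 (log2 fold change -0.47 ± 0.12 SE, limma adjusted p = 0.0345). The groups were apart, but the call was lost without the filter on low counts, with voom weights, and without PD untreated library B or C or PD oxamate library B or C, with adjusted p-values up to 0.110. The next members on that side did not pass the test. Zfp618 had 232, 186 and 198 against 124, 87.8 and 141, Zfp219 249, 248 and 266 against 136, 157 and 204, and Zfp839 72.2, 81.2 and 85.6 against 51.1, 71.0 and 59.0. Their adjusted p-values were 0.107, 0.108 and 0.172.

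**Figure D5:**
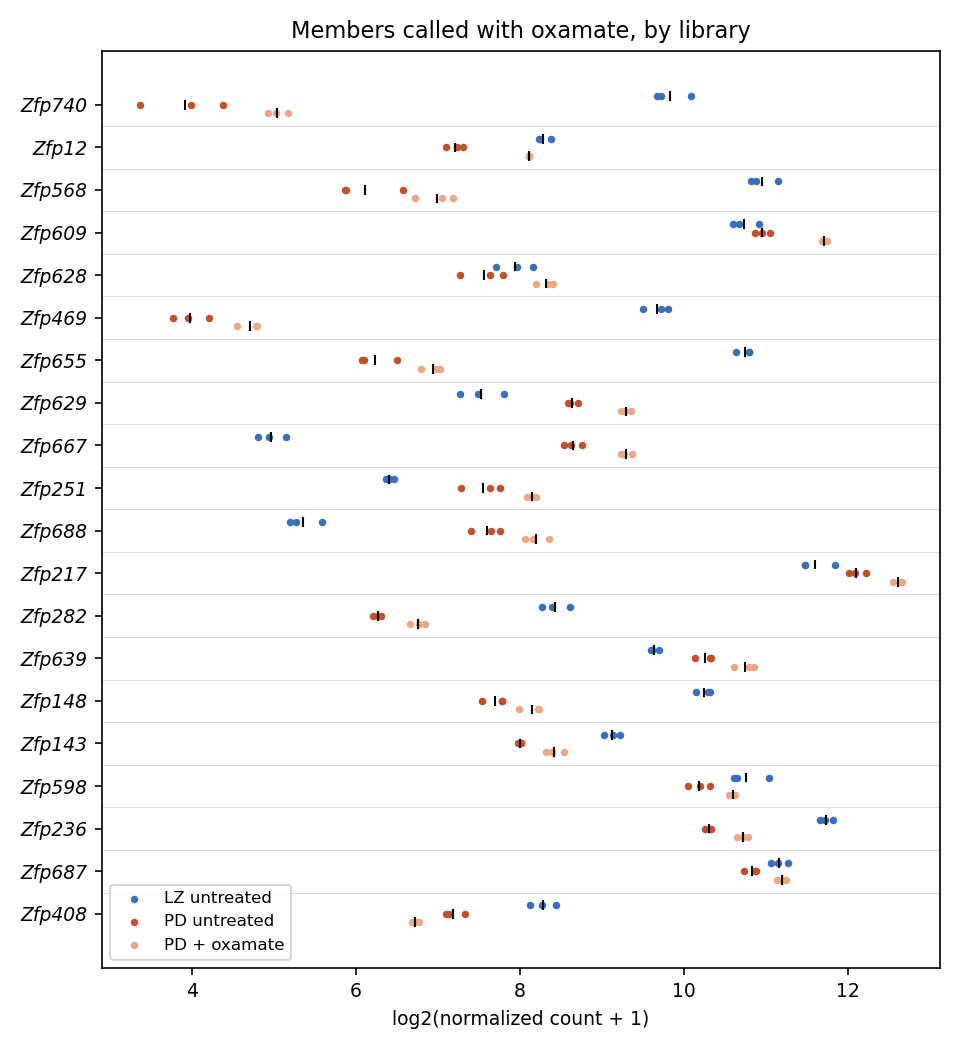
log2(normalized count + 1) of the 20 members called with oxamate in untreated LZ, untreated PD and oxamate-treated PD libraries, 1 point per library, with a tick at each group's mean, ordered by the oxamate log2 fold change. The 3 oxamate libraries of each of the first 19 genes lie above the 3 untreated PD libraries, and those of Zfp408, the last gene, lie below.

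Since the stage and oxamate comparisons share the untreated PD libraries, the values of the 19 genes are given only side by side. Of the 19, 12 were lower in PD than in LZ and 7 were higher. Of the tested members not called with oxamate, 67 were lower in PD than in LZ, 81 were higher and 28 did not pass. For 10 of the 12 the oxamate mean lay between the untreated PD and LZ means. In a gene lower in PD any rise goes toward the LZ mean. The same shares were not counted over all genes, so these counts show nothing particular to the members. The oxamate mean of 7 of the 19 was under 0.5 of the LZ mean. Untreated PD library A was the lowest of its group for 104 of the 200 members, and oxamate library A for 92. In LZ the order was the opposite, with untreated library A the highest of its group for 107 members. Library A with octyl-L2HG was also the highest of its group more often than either other library. These orders were counted over the members only, so they show nothing particular to the members. By class, 6 of 85 tested members with a KRAB box were higher with oxamate, as were 12 of 110 without one. The latter class also held the fall. These shares of 7.06% and 10.9% stood beside 6.13% of all genes tested and 7.60% of protein-coding genes. Zfp469, the remaining rise, has no annotated coding sequence. Of the 29 members sharing over 5% of their sequence with other genes, limma called 0, and before adjustment 2 had a p under 0.05, both on the higher side. Of the 50 least counted members 49 were tested and 0 called, and before adjustment 5 higher and 2 lower ones had a p under 0.05.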

How the data were processed

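Per the labels' protocols, RNA was isolated with a Qiagen kit and libraries were made by poly-A capture with the KAPA Stranded mRNA-Seq Kit. Build GRCm38 and the tools TopHat2 2.1.1, HTSeq 0.6.0, cutadapt 1.18, DESeq2 1.22.2 and bcl2fastq 2.18.0.12 appear, in no stated order, among the submitters' processing notes. No source used here gives the annotation, whether counting used strand, or the authors' model. The authors deposited raw read counts per gene, 12 columns of normalized values (not used), and log2 fold changes with adjusted p-values of their own comparisons, of which only calls at an adjusted p under 0.05 were counted. The counts carry question marks in 6255 of 55471 rows, none of them a member, and the other 49216 rows were used. Because of those marks the columns were handled as another kind of value than counts, and the count test planned for such data was replaced by limma.

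Library sizes and trimmed means of M values (TMM), computed in R 4.3.3, gave normalized counts, and the scale of analysis was log2(normalized count + 1), a scale that understates the changes of scarce genes. With trend and robust moderation, limma 3.58.1 fitted 4 group means over 12 libraries without a block. The test took genes whose normalized counts averaged 10 or more over all libraries and over those compared. It was two-sided, with Benjamini-Hochberg adjustment over all tested genes and a threshold of 0.05. The procedure was run on simulated independent counts, with the same dispersion for all genes and no effect shared by code. The oxamate libraries differ from that setting, and the outcome is not given here. Levels per kilobase used exon lengths of GENCODE M21, whose coordinates were those of the table for 197 of 200 members. Fingers were counted as C2H2 patterns in the longest translation there, and a KRAB box was called at 16 or more matches to a consensus of 37 residues; RefSeq proteins had been planned for this. Shared sequence is the share of windows of 50 bases that recur in other genes. Promoters came from RefSeq and matched 143 members. Python 3.11.15, pandas 2.3.3 and matplotlib 3.10.9 were used.

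Members and gene lists were chosen with earlier results of these data known. The members named are the 10 with the largest sums, the 10 largest rises and falls between stages among called members with non-overlapping groups and a mean of 100 or more, the 6 largest called changes with each treatment or the 3 smallest p-values where fewer than 3 passed, and those on the lists by role. Columns show the group and a code but not the labelled replicate number. Same-coded libraries of the oxamate comparison deviated together, with correlations of their deviations from the group means of 0.36, 0.23 and 0.29. They were 0.03, 0.04 and 0.10 for stage and 0.05, 0.15 and 0.06 for octyl-L2HG, which did not meet the limit of 0.1 in all pairs. Alternatives were other scalings, no filter, a pseudocount of 5, voom weights, a fit of the 2 groups compared, the replicate block, each library left out, and the members on the X left out.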

Additional observations from a re-analysis of the deposited data

How the results depend on the processing

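With total-count scaling the members' median log2 fold change between stages was -0.47 in place of 0.00, and that with oxamate 0.0059 in place of 0.08. Leaving out 1 library gave stage medians from -0.24 to 0.0808, and without PD untreated library B or C the median was -0.16 or -0.24. It gave 79 to 90 members higher and 78 to 91 lower between stages. Total-count scaling reversed the stage direction of Zfp318 (-0.12), Zfp91 (-0.35), Zfp609 (-0.26) and Zfp384 (-0.19); the cause was not tested. With octyl-L2HG 0 members were called in either direction under any alternative run, and the medians without 1 library were 0.02 to 0.13. Leaving out 1 library gave 17 to 19 members higher and 0 to 1 lower with oxamate, and medians of 0.0772 to 0.1527, the highest without PD untreated library C. Members lower with oxamate numbered 0 without the filter, 2 with voom weights and 3 in a fit of these groups alone; the cause was not tested.

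With the code as a replicate block, 29 members were higher and 2 lower with oxamate, against 19 and 1. For stage (88 and 84) and octyl-L2HG (0 and 0), where the code was not shown to pair the libraries, the block left the counts as they were. Over the values of single named members, 2566 alternatives kept the direction and the side of the threshold, 35 lost the call, 21 gained it and 4 reversed. Leaving out 1 library lost up to 4 stage calls, the most without LZ untreated library C, and up to 2 oxamate calls. Without the filter 3 oxamate calls were lost. Not all of the genes concerned are named here, so a named call near the threshold is not thereby shown to be stable.

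Over all genes, calls with oxamate numbered 2117 in a fit of these groups alone against 1186. They were 1352 higher and 765 lower there, against 934 and 252. That fit takes its spread without the LZ libraries, which the main fit includes. Calls with octyl-L2HG numbered 18 in such a fit, 22 with voom weights and 19 to 72 without 1 library, against 40 in the main setting and 28 to 49 in the others. The 22185 stage calls without the filter stood against 15153 of fewer genes tested. Members under 10 mean counts in a group numbered 7 in untreated LZ and 4 in untreated PD, and there counting error limits the fold.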

Other observations

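Genes outside the 200 were read for other zinc finger names. Of the 168 Zfp-named rows beyond the limit 83 were tested between stages, 38 being higher in PD and 31 lower, with a median log2 fold change of 0.42 that turned to -0.47 with total-count scaling. Of 40 genes named Zbtb, a family that pairs a BTB dimerisation domain with zinc fingers, 35 were tested, 24 were lower in PD and 10 higher, with a median of -0.99 (-1.58 with total-count scaling). Of 27 genes named Zscan or Zkscan, which carry a SCAN domain, 20 were tested, 11 being higher and 8 lower, with a median of 1.90 (1.43 with total-count scaling). Of 17 Klf genes 13 were tested, with 5 higher and 7 lower. Over all genes tested 50.8% were higher and 38.9% lower, and the families were not compared with each other by a test.

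With oxamate 4 of 33 tested Zbtb genes and 2 of 19 tested Zscan and Zkscan genes were higher. None of these genes fell at an adjusted p under 0.05 (limma). The shares higher, 12.1% and 10.5%, stood beside 6.13% of all genes tested and 7.60% of protein-coding genes, without a test between them.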
